A study of Mus musculus with 4 samples.

Results

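Early granular keratinocytes of mouse back skin, marked by F3 and Serpina12, made up 1418 of the 34150 cells kept from 4 libraries of single-cell RNA sequencing. The cells were chosen by their own counts. Barcodes with fewer than 1200 counts, or with over 20% of them mitochondrial, were left out. A member held a summed count of at least 5 over F3, Serpina12, Aqp9, Wfdc21 and Slc6a14, fewer than 20 counts over the Lce1 genes, fewer than 10 counts of Cst6 and fewer than 2 counts of Krt79. The Lce1 limit set the members apart from late granular cells, and the Cst6 and Krt79 limits set them apart from cells of the upper hair follicle. All 4 libraries came from female C57BL/6N mice at postnatal day 19, 1 mouse per library. The 2 control mice carried CerS4 alleles flanked by loxP sites and no Cre (CerS4fl/flK14Cre-). The 2 CerS4epi-/- mice carried the same alleles with a Cre driven by the keratin 14 promoter (CerS4fl/flK14Cre+), which is active in basal keratinocytes. The granular cells studied here are thus taken to descend from recombined cells, which was not checked. CerS4 encodes a ceramide synthase that joins long-chain fatty acids to a sphingoid base. Cre itself was present only in the CerS4epi-/- mice, so an effect of Cre and an effect of CerS4 loss cannot be told apart. Members numbered 378 and 469 in the control mice and 294 and 277 in the CerS4epi-/- mice. Their summed counts were 3805168 and 4516631 in the control mice and 3476528 and 2760704 in the CerS4epi-/- mice. The median count per member was 9998 and 9567 against 11425 and 9709, and the median over all kept cells lay between 3267 and 3884 in the 4 libraries.

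No kept barcode occurred in both libraries of a genotype, whereas each pair of libraries of different genotype shared 64 to 102 kept barcodes, of which 1 belonged to members of both libraries. The sources used here do not say which libraries shared a microwell cartridge. If each genotype had its own, cartridge and genotype cannot be told apart, and the spread between the mice of a genotype holds no difference between cartridges.

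The granular layer is the last living layer of the epidermis. Keratinocytes that leave the spinous layer stop relying on keratin filaments alone, fill with keratohyalin granules of profilaggrin and loricrin, load lamellar bodies with ceramide precursors and proteases, and seal tight junctions before they lose the nucleus and become corneocytes. F3 encodes tissue factor, the cell surface starter of blood coagulation. Serpina12 encodes vaspin, a secreted serpin that inhibits kallikrein 7. Aqp9 encodes an aquaglyceroporin that passes water, glycerol and urea. Wfdc21 encodes a small secreted protein with a WAP four-disulfide core, the fold of many protease inhibitors. Slc6a14 encodes a sodium- and chloride-dependent amino acid transporter, and Hrnr encodes hornerin, a filaggrin-like protein of the keratohyalin granule.

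The markers lie on 5 chromosomes. In GRCm39 coordinates F3 lies at chr3:121516610-121528820, Serpina12 at chr12:103995028-104010706, Aqp9 at chr9:71017928-71075964, Wfdc21 at chr11:83637766-83643472, Slc6a14 at chrX:21581135-21608594 and Hrnr at chr3:93227056-93240877. The windows from 250 bases before to 50 bases after the annotated start are shown for the markers of the rule, since the cells were chosen by these genes, and they were found for 4 of the 5 markers among RefSeq promoters of GRCm38.p6. Capitals mark matches to TGANTCA, bound by AP-1 (Fos and Jun dimers), and to TTGCNNAA, bound by C/EBP proteins. Both strands were searched, also for AACCNGTT (grainyhead-like) and CACCC (Krüppel-like). In GRCm38.p6 the windows lie at chr3:121723287-121723586 (F3, plus strand), chr9:71162584-71162883 and chr9:71163240-71163539 (Aqp9, minus strand), chr12:104044394-104044693 (Serpina12, minus strand) and chrX:21714650-21714949 (Slc6a14, plus strand).
F3: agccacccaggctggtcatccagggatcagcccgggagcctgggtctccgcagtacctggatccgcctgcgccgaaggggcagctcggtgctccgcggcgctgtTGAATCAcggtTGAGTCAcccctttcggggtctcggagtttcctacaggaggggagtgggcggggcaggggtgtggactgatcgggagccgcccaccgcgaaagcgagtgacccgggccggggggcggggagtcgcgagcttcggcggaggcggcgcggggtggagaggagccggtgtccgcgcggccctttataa
Slc6a14: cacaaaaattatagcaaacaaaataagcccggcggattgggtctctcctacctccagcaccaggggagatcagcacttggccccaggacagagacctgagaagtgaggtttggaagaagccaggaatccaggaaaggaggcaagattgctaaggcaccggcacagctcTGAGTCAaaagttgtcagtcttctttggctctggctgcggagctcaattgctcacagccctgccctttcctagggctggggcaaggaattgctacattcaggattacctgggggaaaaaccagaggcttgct
Aqp9 inner start: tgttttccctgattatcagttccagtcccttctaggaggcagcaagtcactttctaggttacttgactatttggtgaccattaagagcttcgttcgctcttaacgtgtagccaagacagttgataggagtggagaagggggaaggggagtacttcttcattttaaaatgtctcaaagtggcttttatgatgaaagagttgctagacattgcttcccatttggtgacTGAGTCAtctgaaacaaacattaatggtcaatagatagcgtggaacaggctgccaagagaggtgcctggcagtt
Aqp9 outer start: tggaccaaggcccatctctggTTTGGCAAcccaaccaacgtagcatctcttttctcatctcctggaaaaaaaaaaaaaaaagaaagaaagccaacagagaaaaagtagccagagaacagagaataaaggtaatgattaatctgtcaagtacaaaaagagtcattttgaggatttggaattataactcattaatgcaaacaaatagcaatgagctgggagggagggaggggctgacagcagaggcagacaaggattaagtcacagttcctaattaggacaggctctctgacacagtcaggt
Serpina12: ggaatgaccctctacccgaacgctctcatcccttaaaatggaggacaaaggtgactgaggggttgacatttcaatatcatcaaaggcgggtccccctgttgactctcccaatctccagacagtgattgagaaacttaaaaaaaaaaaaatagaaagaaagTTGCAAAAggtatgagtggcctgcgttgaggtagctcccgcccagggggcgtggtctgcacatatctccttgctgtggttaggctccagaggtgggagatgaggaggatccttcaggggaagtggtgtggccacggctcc
AP-1 letters occurred 2 times in the F3 window and 1 time each in the Slc6a14 window and the inner Aqp9 window. C/EBP letters occurred 1 time each in the outer Aqp9 window and the Serpina12 window. The shares of all 32851 windows of this length that held the letters were 7.81% for AP-1, 10.8% for C/EBP, 2.09% for the grainyhead-like letters and 57.5% for CACCC. None of the 5 windows held the grainyhead-like letters, and CACCC occurred in the F3 window alone, at 4 places, with 1 of them overlapping an AP-1 match. These matches are a description of letters and not of binding. Wfdc21 had no entry.

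The markers stood far above their level in the earlier layers. The comparison layers were basal cells (11541 cells), spinous cells (8255 cells) and late granular cells (1105 cells with at least 20 Lce1 counts). Levels are counts per 1000000 of the layer's summed counts (CPM), in which each counted molecule weighs the same whatever the length of its gene. F3 stood at 560 and 862 CPM in the members of the control mice and at 735 and 790 CPM in those of the CerS4epi-/- mice, against 3.98 to 6.60 CPM in spinous cells. Serpina12 stood at 696, 831, 707 and 741 CPM against 1.93 to 3.16 CPM in spinous cells, in the same order of mice. These levels chose the members, so the contrast is a description and carries no test. Wfdc21 read 4186, 4417, 3197 and 3828 CPM, and it supplied 61.5 to 69.0% of the summed marker counts of the members. Slc6a14 read 306, 303, 283 and 295 CPM. Aqp9 read 315, 306, 274 and 289 CPM in the members and 128, 108, 37.6 and 26.9 CPM in late granular cells. Of the markers, Aqp9 was the transient one in every mouse, at 2.45 to 10.4 times its late granular level, with 1 CPM added to each side. Wfdc21 and Serpina12 went on climbing to 8987 ± 625 and 1140 ± 111 CPM in late granular cells (mean ± SD, n = 4 mice). F3 read 701, 926, 422 and 582 CPM in late granular cells and Slc6a14 read 307, 330, 234 and 255 CPM, so both straddled their level in the members.

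**Figure D1:**
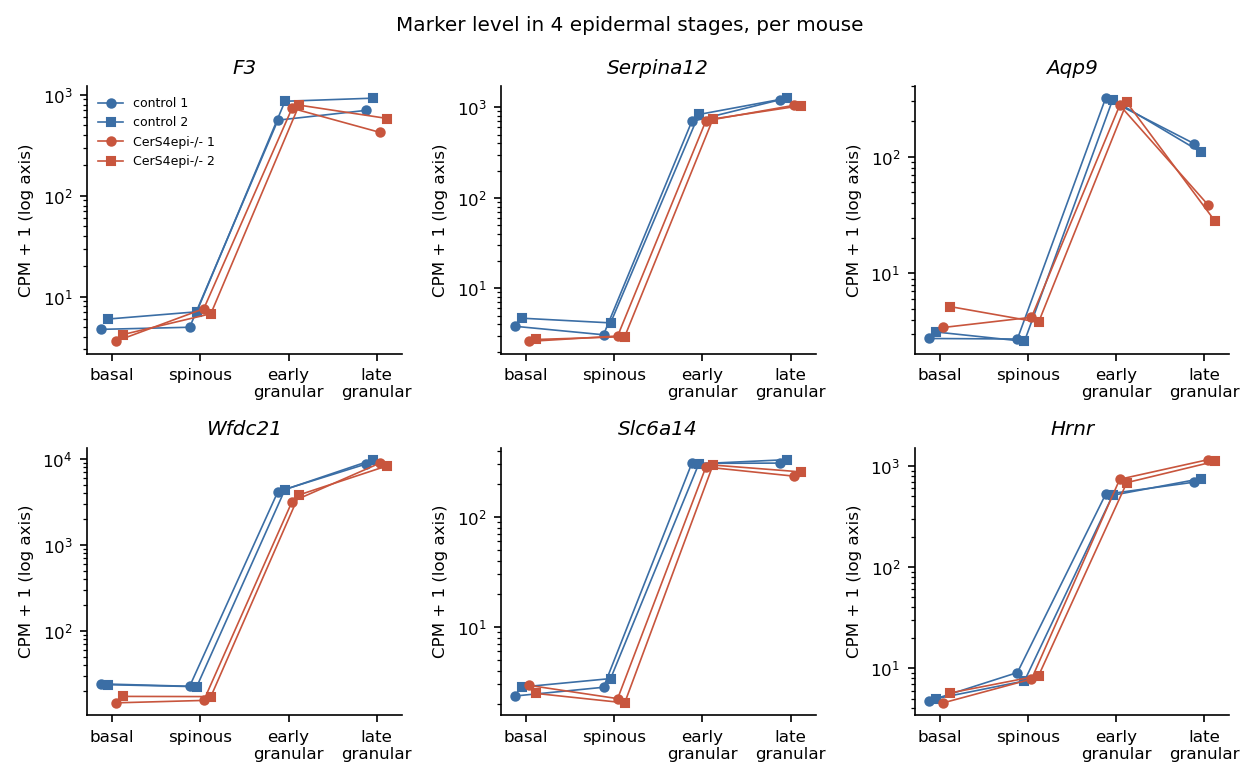
Level of the 5 rule markers and of Hrnr in basal, spinous, early granular and late granular cells (x axis), as CPM plus 1 on a log axis (y axis). Each line is 1 mouse, blue for control and red for CerS4epi-/-. All 6 genes stand far lower in basal and spinous cells, Aqp9 drops again in late granular cells, and Hrnr, which the rule did not use, is higher in the CerS4epi-/- mice in both granular layers.

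Hrnr took no part in the rule, since no limit was set on it, but it was listed as a marker of these cells. Basal and spinous cells were limited to at most 1 marker count and fewer than 5 Lce1 counts, which leaves granular cells out. The Hrnr contrast is thus a description and not an independent check. Hrnr stood at 524 and 512 CPM in the members of the control mice and at 738 and 684 CPM in those of the CerS4epi-/- mice, against 6.47 to 8.04 CPM in spinous and 3.53 to 4.68 CPM in basal cells. A Hrnr count was found in 72.8 to 82.3% of members per mouse, in 2.15 to 3.25% of spinous cells and in 1.19 to 1.62% of basal cells. Members were deeper than spinous cells, whose median counts were 3824 to 5367. After each cell was thinned to 1200 counts the shares were 38.6 to 52.7% of members, at most 1.05% of spinous cells and at most 0.701% of basal cells. Basal cells, which should lack hornerin, give the background of such shares, and the members stood far above it. The limits on the comparison cells fixed part of that gap in advance. Late granular cells stood higher still in every mouse, at 690 to 1154 CPM with a Hrnr count in 88.2 to 94.6% of cells. Hrnr thus does not check the early part of the label. Members carried different sets of the markers. All 5 markers were found in 33.6 to 41.2% of members per mouse and at least 3 in 73.1 to 77.8%, while 7.46 to 14.6% held a single marker. At the edge of the rule, 52, 46, 17 and 19 members held a marker sum of exactly 5, and 38, 54, 26 and 33 cells that met the other limits held a sum of 4. Hrnr read 66.7 to 84.7 CPM in the former and 53.6 to 207 CPM in the latter, so the ranges at either side of the limit overlapped and lay below the level over all members.

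Genes outside the rule placed the members between the layers. This contrast rests on cells cut by the rule and is given without a test. Ivl, which encodes involucrin, the early scaffold of the cornified envelope, peaked in the members at 1005 ± 116 CPM, against 93.2 ± 20.1 in spinous and 276 ± 148 in late granular cells (n = 4 mice). Lor, which encodes loricrin, the main envelope protein, read 11031 ± 613 CPM, against 125 ± 5.51 in spinous cells and 66147 ± 5500 in late granular cells. Flg2 read 1555 ± 76.2 CPM against 5407 ± 961 in late granular cells. Loricrin and filaggrin-2 mRNA in the members thus lay between the spinous and the late level. The suprabasal keratins Krt10 and Krt77 were still at 31018 ± 1068 and 26146 ± 860 CPM and had dropped to 5712 ± 2952 and 5456 ± 1903 CPM in late granular cells. Krt1, the partner of Krt10, was instead lower than in spinous cells, with 1878 ± 617 CPM in the members against 7270 ± 1339 in spinous cells. Spinous cells were chosen by their summed Krt1 and Krt10 counts, so their level of both genes was in part set by that choice. Klk5 and Spink5, a desquamation protease and its inhibitor, read 1202 ± 87.1 and 4639 ± 447 CPM and were lower in late granular cells, at 514 ± 81.3 and 3595 ± 395 CPM.

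The lipid genes fell into an early and a late set. The acylceramide genes Cers3, Alox12b and Sdr9c7, for the ceramide synthase of ultra-long acyl chains and for enzymes that oxidise its product, read 193 ± 15.5, 654 ± 30.9 and 324 ± 1.79 CPM in the members. In late granular cells they read 684 ± 40.8, 2110 ± 82.6 and 1215 ± 62.9 CPM, higher in every mouse. Smpd3, for a sphingomyelinase, went from 42.6 ± 3.62 to 755 ± 155 CPM. Cyp4f39, for the omega-hydroxylase of ultra-long fatty acids, and Sphk1, for a sphingosine kinase, ran the other way, with 112 ± 5.58 and 148 ± 13.3 CPM in the members and 30.8 ± 13.0 and 37.1 ± 15.6 CPM in late granular cells. The cholesterol synthesis genes Msmo1 and Sqle were also highest in the members, at 577 ± 18.1 and 325 ± 27.6 CPM against 170 ± 60.2 and 104 ± 20.5 CPM in late granular and 92.5 ± 5.79 and 103 ± 7.57 CPM in spinous cells. Of the junction genes, Cldn23 and Dsc1, for a claudin and a desmosomal cadherin, read 572 ± 33.7 and 218 ± 26.5 CPM against 25.6 ± 4.98 and 29.9 ± 4.61 CPM in spinous cells.

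Of 3852 genes outside the rule with at least 30 CPM in the members of every mouse, 245 were at least 1.5 times as high there as in each of the other 3 layers in every mouse, with 1 CPM added to each side. Those named next were picked after their values were seen. Nt5e, for the ectonucleotidase CD73, read 60.3 ± 18.9 CPM against at most 9.78 ± 8.77 in another layer. Mboat2, for a membrane-bound acyltransferase, read 1485 ± 125 CPM against 186 ± 45.9 in spinous and 371 ± 177 in late granular cells. Ifitm6, of the interferon-induced transmembrane family, read 1177 and 1221 CPM in the control mice and 408 and 505 CPM in the CerS4epi-/- mice, with 18.3 to 360 CPM in late granular cells. Skint10, of a family that selects epidermal gamma delta T cells, read 766 ± 82.4 CPM against 173 ± 52.6 in spinous and 161 ± 99.8 in late granular cells.

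**Figure D2:**
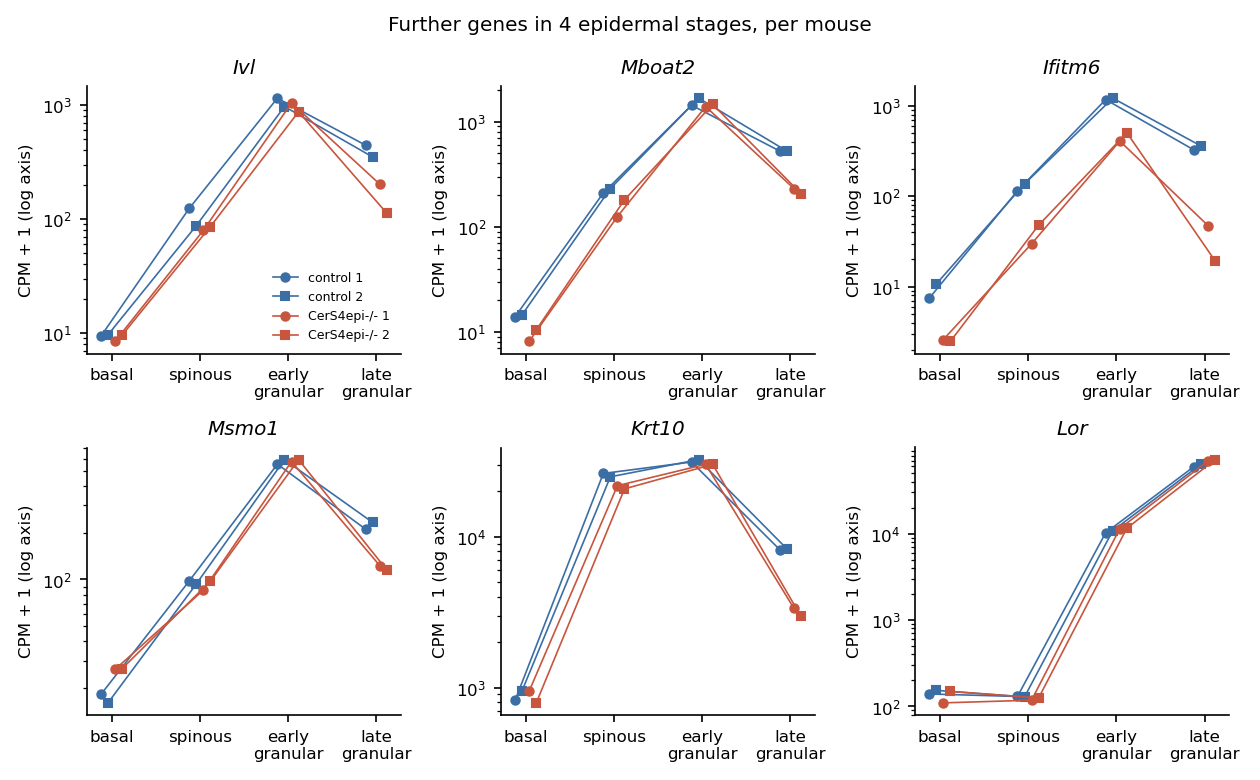
Level of Ivl, Mboat2, Ifitm6, Msmo1, Krt10 and Lor in the 4 layers (x axis) as CPM plus 1 on a log axis (y axis), with 1 line per mouse, blue for control and red for CerS4epi-/-. Ivl, Mboat2, Ifitm6 and Msmo1 peak in the early granular members, Krt10 stays high until then, and Lor keeps climbing, while Ifitm6 lies lower in the CerS4epi-/- members.

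The members themselves formed a graded series. They were split by their Lce1 counts, which the rule limited but did not otherwise use, into cells with 0, 1 to 4, 5 to 9 and 10 to 19 counts. Per mouse, 31.1 to 36.1% of members held no Lce1 count and 7.58 to 11.9% held 10 to 19. From the lowest to the highest of these classes Lor went from 7773 to 21744 CPM, Flg2 from 1196 to 2549 CPM and Hrnr from 440 to 867 CPM (means of 4 mice). Cers3 went from 155 to 290 CPM and Alox12b from 479 to 1093 CPM. Krt1 ran the opposite way, from 2248 to 847 CPM, as did Krt5, a basal keratin, from 679 to 223 CPM. Krt10 read 31079 CPM in the lowest and 28868 CPM in the highest class, and this mean joins different courses. From the lowest to the highest class the control mice went from 30483 to 32171 and from 31264 to 32309 CPM, and the CerS4epi-/- mice from 31237 to 26938 and from 31332 to 24054 CPM. The transcription factor gene Cebpa read 516 and 527 CPM, a difference within the spread between mice. The highest class rested on 21 to 56 cells per mouse. This gradient is a description of cells of the same mice and carries no test.

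**Figure D3:**
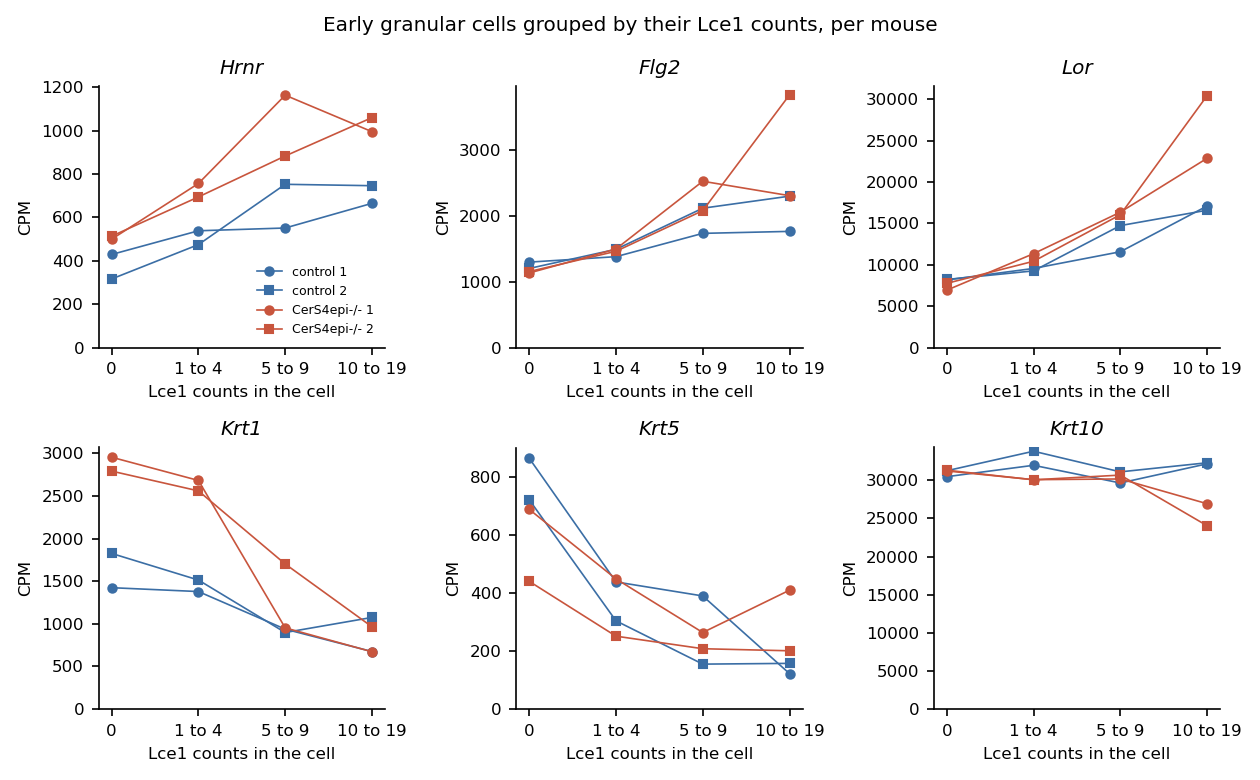
Early granular cells grouped by their Lce1 counts (x axis), with the CPM of the class on the y axis and 1 line per mouse, blue for control and red for CerS4epi-/-. On the mean of the mice Hrnr, Flg2 and Lor climb with Lce1 and Krt1 and Krt5 go down, although single mice turn in the last class, and Krt10 is nearly level up to 9 Lce1 counts, with the CerS4epi-/- mice lower in the last class.

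Members were a smaller share of the kept cells in the CerS4epi-/- mice, and this depended on the denominator and on the limits of the rule. The share was 4.46% (95% Wilson interval 4.04 to 4.92) and 5.16% (4.73 to 5.64) in the control mice and 3.26% (2.91 to 3.65) and 3.66% (3.26 to 4.11) in the CerS4epi-/- mice. The groups did not overlap. The means were 4.81 ± 0.498% and 3.46 ± 0.283% (SD, n = 2 mice each). The exact two-sided permutation test gave p = 0.333, the smallest value that 2 mice against 2 allow. As a share of the spinous, early and late granular cells together, the members were 12.4 and 12.8% in the control mice and 12.6 and 15.8% in the CerS4epi-/- mice, so the direction turned and the groups overlapped. Spinous cells, which enter that denominator, made up 28.0 and 30.7% of kept cells in the control mice and 19.9 and 17.1% in the CerS4epi-/- mice. Without the Cst6 and Krt79 limits the shares of kept cells were 7.25 and 8.85% against 7.35 and 7.31%, which overlap. The Cst6 limit alone had removed 226 and 327 cells in the control and 360 and 269 cells in the CerS4epi-/- mice. Under a limit of 10% mitochondrial counts the shares were 6.02 and 6.75% against 5.81 and 6.31%, which overlap. The intervals cover counting error only.

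Between the genotypes, members of the CerS4epi-/- mice carried more mRNA for filaggrin, keratin 1, the secreted Slurp proteins and Jun, and less for Ifitm6 and Hpgds. Counts were summed over the members of each mouse and tested by edgeR's quasi-likelihood test over 10070 genes, with a Benjamini-Hochberg adjusted p under 0.05 as the call. In all, 163 genes (1.62% of those tested) were higher and 98 genes (0.973%) were lower in the CerS4epi-/- members. An unadjusted p under 0.05 was reached by 1657 genes, 16.5% of those tested. The median log2 fold change over all genes tested was -0.0018. Changes were mostly modest, since 39 of the higher and 35 of the lower genes moved by more than 1 on the log2 scale. The counts depended on single mice. Without CerS4epi-/- mouse 1 they were 40 higher and 22 lower, without CerS4epi-/- mouse 2 they were 88 and 41, and without control mouse 2 they were 263 and 199. DESeq2 called 77 and 41 on the same sums. Of the 261 genes, 118 were called by DESeq2, and many losses of named genes are given beside them. Without members holding immune or pigment cell counts, which left 226 cells, the calls of Flg, Slurp1, Ovol1, Nfkbiz and Hpgds were also lost. Those of Slurp2 and Tcaf2 were lost in members without an Lce1 count.

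The targeted gene could not serve as a check. Cers4 (chr8:4542809-4581680 in GRCm39) had 7 counts in the members of the control mice and 4 in those of the CerS4epi-/- mice, at most 1.73 CPM in any layer of any mouse, and was not tested. Which exons were flanked by loxP sites is not given in the sources used here, so even these counts may lie outside the deleted stretch. Of the other ceramide synthase genes, Cers3 read 192 and 180 CPM in the control members and 215 and 185 CPM in the CerS4epi-/- members (adjusted p = 0.614 in edgeR). Cers6 read 38.9 and 27.5 against 28.5 and 28.6 CPM, and Cers5 read 6.57 and 5.87 against 5.27 and 5.98 CPM, and neither passed the test. The rule markers are given without a test, since the rule cut on them. In the values given above, the genotypes overlapped for F3 and Serpina12, and the CerS4epi-/- mice lay below the control mice for Wfdc21, Aqp9 and Slc6a14.

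**Figure D4:**
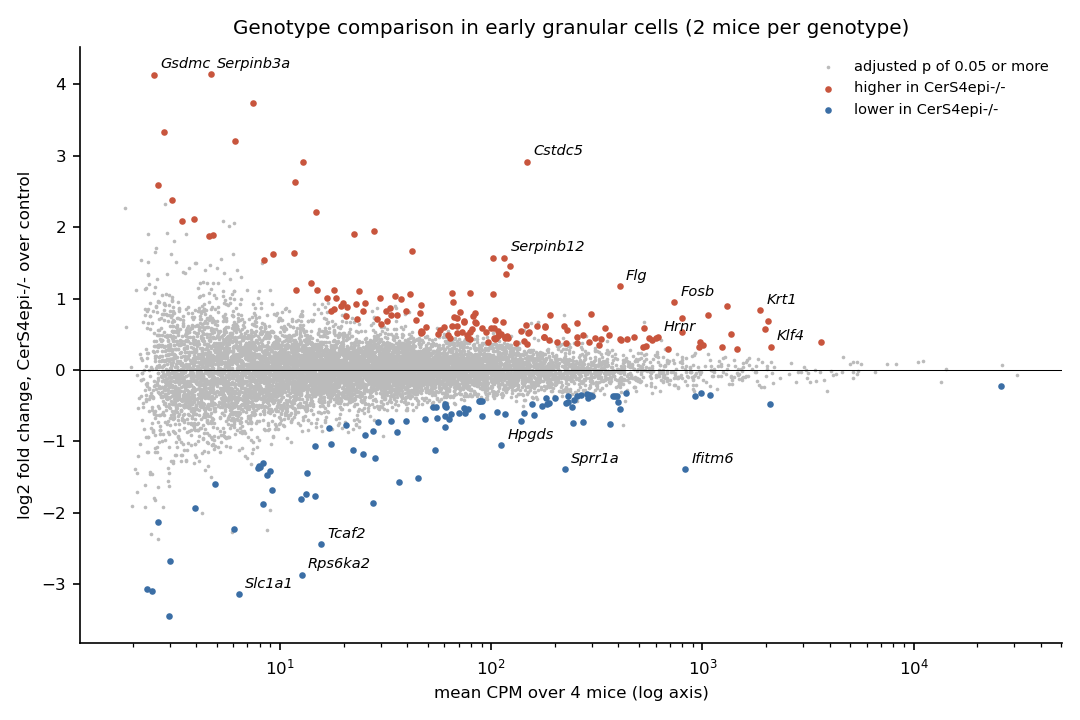
Genes tested between the genotypes in early granular cells, with the mean CPM over 4 mice on a log x axis and the log2 fold change of CerS4epi-/- over control on the y axis. Red points (163 genes) were higher, blue points (98 genes) were lower at an adjusted p under 0.05 in edgeR, and grey points passed no test. Large fold changes sit mostly at a low mean CPM, with Cstdc5, Flg and Ifitm6 among the abundant exceptions.

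Structural proteins of the granule and envelope moved both ways. Of 29 listed genes 23 were tested, with 3 higher, 4 lower and 16 not called, and the median log2 fold change was 0.08. An unadjusted p under 0.05 in edgeR was reached by 9 of the 23, against 16.5% of all genes. Flg, which encodes profilaggrin, the source of filaggrin and of natural moisturising factor, read 233 and 266 CPM in the control members and 541 and 582 CPM in the CerS4epi-/- members. Flg rose 2.25-fold, with a log2 fold change of 1.17 ± 0.0854 (SE, edgeR adjusted p = 2.82e-05), and it was called in each of the fits that left out 1 mouse. Hrnr rose by 0.46 ± 0.0736 on the log2 scale (adjusted p = 0.00828), and was called in 21 of 25 alternative fits and not without CerS4epi-/- mouse 1. Evpl, for envoplakin, rose by 0.38, from 213 and 232 to 292 and 286 CPM. Lor (10257 and 10826 against 11471 and 11571 CPM) and Flg2 (1445 and 1616 against 1564 and 1593 CPM) were not called. Flg, Flg2 and Hrnr consist of near-identical repeats, and the authors' counting shared reads that map to several places, so part of a difference between these genes is uncertain. Flg was higher in the CerS4epi-/- mice in each of the 4 Lce1 classes, without overlap, as was Hrnr. Of the lower genes, Sprr1a, for a small proline-rich envelope precursor, read 359 and 288 CPM against 158 and 83.3 CPM. Sprr1a fell by 1.39 ± 0.207 on the log2 scale (adjusted p = 0.00597), but it was higher by 1.93 in the CerS4epi-/- mice when cells above the Cst6 and Krt79 limits were let in. The call was lost with DESeq2 (adjusted p = 0.137), in members with an Lce1 count (log2 fold change -0.78), without members holding immune or pigment cell counts (-0.89) and in cells with a marker sum of at least 2 without Wfdc21 (-1.34). In the class of 1 to 4 Lce1 counts the genotypes overlapped, at 272 and 202 against 228 and 57.8 CPM, and in the other 3 classes they did not. Lce6a fell by 0.60 (91.2 and 89.2 against 58.4 and 60.5 CPM), Kprp fell by 0.45 and Krtdap fell by 0.22. The Lce6a call was lost with DESeq2, without either CerS4epi-/- mouse and in members without an Lce1 count, and the fold change turned to 0.12 without members holding immune or pigment cell counts. Krt77, the most abundant gene of the list by counts, read 24993 and 25996 against 26891 and 26705 CPM (adjusted p = 0.466).

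Of 14 genes for crosslinking and filaggrin processing, 11 were tested, 2 were higher and none was lower. In edgeR 4 of the 11 had an unadjusted p under 0.05, against 16.5% of all genes. Casp14, for the caspase that degrades filaggrin, read 483 and 506 against 674 and 650 CPM, a log2 fold change of 0.43 ± 0.0722 (adjusted p = 0.0111). Blmh, for bleomycin hydrolase, which completes that breakdown, rose by 0.35 (adjusted p = 0.0316). Casp14 was called in 21 and Blmh in 20 of 25 alternative fits, and neither was called without CerS4epi-/- mouse 1, in members without an Lce1 count, or without members holding counts of other cell types. Asprv1, for the protease that cuts profilaggrin, read 1527 and 1574 against 1638 and 1767 CPM and was not called. Of 28 proteases and protease inhibitors, 24 were tested, with 3 higher and 1 lower. All 4 called genes were inhibitors. In edgeR 7 of the 24 had an unadjusted p under 0.05, against 16.5% of all genes. Serpinb12, an intracellular serpin, read 56.8 and 59.6 against 180 and 165 CPM, a log2 fold change of 1.57 ± 0.100 (adjusted p = 1.26e-05). Stfa3, a stefin, rose by 2.91 from 3.94 and 2.21 to 27.6 and 17.4 CPM, and Serpinb3a rose by 4.14 from 4 counts over the control members to 57. Serpinb12 and Stfa3 kept their calls in every alternative fit that tested them, and Serpinb3a lost its call with DESeq2 and without CerS4epi-/- mouse 1. Serpinb7, whose loss in people gives a palmoplantar keratosis, fell by 0.35 from 1208 and 1233 to 920 and 990 CPM. Spink5, the most abundant gene of the list by counts, was not called (adjusted p = 0.172).

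Keratin 1 rose, and its partner keratin 10 was not called. Of 16 genes of the spinous layer, all were tested, with 5 higher and 1 lower. In edgeR 8 of the 16 had an unadjusted p under 0.05, against 16.5% of all genes. Krt1 read 1256 and 1439 CPM in the control and 2394 and 2421 CPM in the CerS4epi-/- members, a log2 fold change of 0.84 ± 0.0735 (adjusted p = 0.000172). Krt10 read 31276 and 32422 against 30203 and 30170 CPM (adjusted p = 0.458). Within the Lce1 classes, Krt1 was higher without overlap in the classes of 0 and of 1 to 4 counts. In the class of 5 to 9 counts it read 937 and 898 against 953 and 1701 CPM, so CerS4epi-/- mouse 1 lay close to the control mice. The genotypes overlapped in the class of 10 to 19 counts, at 675 and 1075 against 672 and 965 CPM. Mt4, a metallothionein, rose by 0.76, Lypd3 by 0.44, Ly6d by 0.39 and Lgals7 by 0.39. The Mt4 call was made in 9 of 25 alternative fits with a range of 0.18 to 1.55, against 22 of 25 for Lypd3. Krtdap, counted in both lists, was the gene that fell. None of the 16 basal layer genes was called by edgeR or DESeq2, and 1 had an unadjusted p under 0.05 in edgeR, against 16.5% of all genes. Krt15, the most abundant of them by counts, read 1096 and 894 against 826 and 894 CPM, and cells with at least 20 counts of Krt5 and Krt14 were 6.14 to 9.52% of members per mouse. Without these cells edgeR called 183 genes higher and 123 lower. Krt5 and Krt14 counts in a member can come from free RNA or from 2 cells in a well, whose part in the results was not tested.

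Of 49 genes for ceramide and barrier lipid synthesis, 44 were tested, with 2 higher, 1 lower and a median of 0.05, and 14 had an unadjusted p under 0.05 in edgeR (16.5% of all genes did). Lipk, for a lipase of the granular layer, rose by 0.87 ± 0.142, from 23.9 and 23.0 to 41.4 and 44.6 CPM (adjusted p = 0.00927). Elovl7, for a fatty acid elongase, rose by 0.57 ± 0.118, from 67.3 and 63.8 to 106 and 86.2 CPM. DESeq2 called no gene of the list. Lipk was called in 20 of 24 alternative fits (log2 fold change 0.07 to 1.11) and Elovl7 in 20 of 25 (0.39 to 1.59), and neither was called without CerS4epi-/- mouse 1. Sptlc3, for a subunit of serine palmitoyltransferase, the first step of ceramide synthesis, read 327 and 350 against 267 and 260 CPM and fell by 0.36 ± 0.0801 (adjusted p = 0.0383). It was called in 1 of the 4 fits that left out a mouse. Pla2g2f, an epidermal phospholipase gene and the most abundant of the list by counts, was not called (adjusted p = 0.902). Of 24 genes for cholesterol synthesis and uptake, 23 were tested, 4 were higher and none was lower, 14 had an unadjusted p under 0.05, and all 23 fold changes lay above 0, with a median of 0.33 against -0.0018 over all genes. Cyp51, for a sterol demethylase, read 209 and 245 against 325 and 312 CPM and rose by 0.49 ± 0.0931 (adjusted p = 0.0192), Ebp by 0.43 and Stard4, for a cholesterol carrier, by 0.41. Cyp51 was called in 22 of 25 alternative fits and Ebp in 14. Msmo1, the most abundant gene of the list by counts, read 553 and 591 against 575 and 591 CPM. Outside the lists, Scd2, for a fatty acid desaturase, went from 48.6 and 53.6 to 143 and 161 CPM, a log2 fold change of 1.57 ± 0.105 (adjusted p = 1.32e-05). Scd2 was picked after its values were seen.

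Of 26 transport genes outside the rule, 19 were tested, 5 were higher and none was lower, with a median of 0.35. In edgeR 10 of the 19 had an unadjusted p under 0.05, against 16.5% of all genes. Aqp3, for the glycerol channel of basal keratinocytes, rose by 1.12 from 7.62 and 7.53 to 18.4 and 14.1 CPM, and Slc39a2, for a zinc importer, rose by 1.12 from 12.4 and 10.8 to 31.4 and 17.7 CPM. Slc30a1, for a zinc exporter, rose by 0.75 ± 0.129 (adjusted p = 0.0116), and Slc12a2 rose by 0.62. Slc30a1 was called in 21 of 25 alternative fits (log2 fold change 0.58 to 0.92). Its call was lost without CerS4epi-/- mouse 2 and in members without an Lce1 count, among others. Atp2a2, for the calcium pump of the endoplasmic reticulum and the most abundant of the list by counts, read 285 and 287 against 365 and 363 CPM (log2 fold change 0.35, adjusted p = 0.0328). Aqp3 was called in 15 of 24 alternative fits (0.46 to 1.89) and Slc39a2 in 14 of 24 (0.61 to 1.48), neither by DESeq2 nor without CerS4epi-/- mouse 1, and Atp2a2 in 1 of the 4 fits that left out a mouse. Of 33 junction genes, 30 were tested and 1 was called, Cldn4, for a tight junction claudin, at 290 and 271 against 381 and 377 CPM (adjusted p = 0.0122). In edgeR 5 of the 30 had an unadjusted p under 0.05, against 16.5% of all genes. Cldn4 was called in 21 of 25 alternative fits (log2 fold change 0.02 to 0.59) and not without CerS4epi-/- mouse 1. Perp, a desmosomal gene and the most abundant of that list by counts, read 5423 and 5483 against 5697 and 5860 CPM and was not called. None of the 5 coagulation genes tested outside the rule was called by edgeR or DESeq2, and 2 had an unadjusted p under 0.05 in edgeR, against 16.5% of all genes. Anxa2, a plasminogen receptor gene, read 1442 and 1434 against 1270 and 1222 CPM (adjusted p = 0.126).

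**Figure D5:**
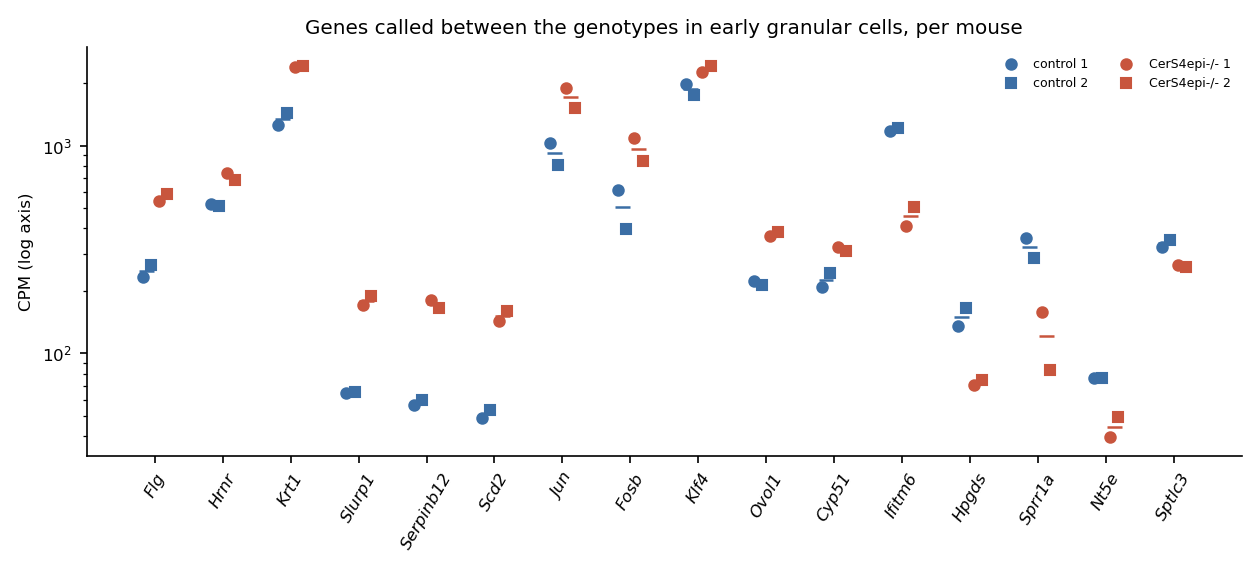
CPM on a log y axis of 16 genes called between the genotypes in early granular cells (x axis), with 1 point per mouse, blue for control and red for CerS4epi-/-, and a short line at each genotype mean. For each gene the mice of the genotypes do not overlap, from Flg to Cyp51 with the CerS4epi-/- mice above and from Ifitm6 to Sptlc3 with them below.

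Of the differentiation regulators and immediate early genes that were called, all but 1 were higher. Of 36 transcription factors of differentiation, 33 were tested, with 4 higher and 1 lower. In edgeR 15 of the 33 had an unadjusted p under 0.05, against 16.5% of all genes. Ovol1, for a repressor that drives exit from the cell cycle, read 222 and 215 against 368 and 385 CPM, a log2 fold change of 0.79 ± 0.0767 (adjusted p = 0.000247). Grhl3, which activates barrier genes, rose by 0.40 and Cebpa by 0.33. Klf4, required for barrier formation and the most abundant of the list by counts, read 1979 and 1762 against 2259 and 2428 CPM (log2 fold change 0.33, adjusted p = 0.0294). Grhl3 and Klf4 were each called in 1 of the 4 fits that left out a mouse. Of 28 immediate early and dissociation genes, all were tested, 10 were higher (Fos, Fosb, Jun, Junb, Jund, Egr1, Ier2, Ier3, Dusp1 and Zfp36) and none was lower, with a median of 0.57. In edgeR 24 of the 28 had an unadjusted p under 0.05, against 16.5% of all genes. DESeq2 called 4 genes of the list. Jun read 1028 and 807 against 1893 and 1518 CPM, a log2 fold change of 0.90 ± 0.117 (adjusted p = 0.00236). Fosb read 610 and 399 against 1087 and 842 CPM, and Fos read 1876 and 1258 against 2662 and 2348 CPM. Ier3 had the largest fold change, 1.89, at 17 and 48 counts. Jun was called in all 25 alternative fits, while Fosb lost its call with DESeq2 and without CerS4epi-/- mouse 1, and Ier3 with DESeq2 and without either CerS4epi-/- mouse. The heat shock gene Hspb1, the most abundant of the list by counts, read 14507 and 14176 against 12869 and 12640 CPM (adjusted p = 0.105). These genes also respond to enzymatic dissociation of tissue, whose part in the results was not tested.

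Of 37 stress and alarmin genes, 21 were tested, 3 were higher and none was lower, and 10 had an unadjusted p under 0.05 in edgeR (16.5% of all genes did). Hbegf, for an EGF receptor ligand, read 82.8 and 52.3 against 196 and 139 CPM, a log2 fold change of 1.34 ± 0.192 (adjusted p = 0.00417). Nfkbiz, for a nuclear NF-kB cofactor, rose by 1.08 ± 0.0998, from 51.0 and 51.1 to 104 and 112 CPM (adjusted p = 0.000211), and Il36b, for an interleukin 36 cytokine, rose by 1.00. Nfkbiz was called in 24 of 25 and Il36b in 22 of 24 alternative fits, and Hbegf in 21 of 25 (log2 fold change 0.88 to 1.69), not by DESeq2 nor without CerS4epi-/- mouse 1. Krt17, the most abundant of this list by counts, read 712 and 668 against 821 and 699 CPM and was not called. None of the 14 interferon and antigen presentation genes tested was called by edgeR or DESeq2, 3 had an unadjusted p under 0.05 in edgeR, against 16.5% of all genes, and the list held H2-K1 at 1559 and 1577 against 1746 and 1776 CPM. Of 34 glutathione and NRF2 genes, 28 were tested and 2 were higher, Aldh3a1, for an aldehyde dehydrogenase, by 1.63 at 37 and 86 counts, and Gsto1 by 0.64. Neither was called by DESeq2, and Gsto1 was called in 11 of 25 alternative fits. Prdx1, the most abundant, was not called. An unadjusted p under 0.05 in edgeR was reached by 6 of these 28 genes, against 16.5% of all genes. Of 18 follicle genes outside the rule, 14 were tested, 3 were higher and none was lower. In edgeR 4 of the 14 had an unadjusted p under 0.05, against 16.5% of all genes. Slurp1, for a secreted protein whose loss gives a palmoplantar keratoderma, read 64.6 and 65.5 against 171 and 188 CPM, a log2 fold change of 1.46 ± 0.0949 (adjusted p = 1.26e-05). Slurp2 rose by 2.63 from 4.73 and 1.99 to 21.9 and 18.5 CPM, and Defb6, a defensin gene, by 0.94. Defb6 was called in 12 of 25 alternative fits and in 1 of the 4 that left out a mouse, not by DESeq2, and it was lower by 0.35 (log2 fold change -0.35) in members without an Lce1 count. The rule removed cells with at least 10 Cst6 or 2 Krt79 counts, and without those limits edgeR called 707 genes higher and 385 lower.

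The largest rises and falls were mostly of scarce transcripts. Beside Serpinb3a, Stfa3 and Slurp2 above, the 10 largest rises held Gsdmc, Serpina3j, Slfn2, Pyy, Cstdc5, Ugt3a2 and Dnm3. Cstdc5, a stefin gene, was the abundant one, at 44.2 and 26.5 against 339 and 181 CPM, a log2 fold change of 2.92 ± 0.275 (adjusted p = 0.000211). Gsdmc, for a gasdermin, had 2 counts in the control and 30 in the CerS4epi-/- members, a ratio with a 95% counting interval of 5.08 to 173. Pyy, for peptide YY, had 10 and 72 counts, and Serpina3j had 8 and 80, of which most came from CerS4epi-/- mouse 2 (22.8 against 4.89 CPM). Slfn2, Ugt3a2 and Dnm3 had 4 to 8 counts in the control and 28 to 32 in the CerS4epi-/- members. Of the 4 fits that left out a mouse, Ugt3a2 and Dnm3 were each called in 1 and Slfn2 in 2, and DESeq2 called none of these nor Gsdmc, Pyy and Serpina3j. Stefin, Serpina3 and Serpinb3 genes have near-identical copies among which reads were shared, so single members are uncertain. The 10 largest falls held Cdh4, Slc1a1, Zfp14, Rps6ka2, Car5a, Tcaf2, Cys1, Fkbp6, Trmt5 and 1 predicted gene. Rps6ka2, for a ribosomal S6 kinase, read 21.5 and 23.3 against 4.31 and 1.39 CPM and fell by 2.87 ± 0.321 on the log2 scale (adjusted p = 0.000728). Tcaf2, for a protein that binds a cold-sensing channel, read 23.7 and 29.0 against 3.45 and 6.52 CPM and fell by 2.44. Slc1a1, for a glutamate transporter, read 12.1 and 11.1 against 2.30 and 0 CPM, and it fell by 3.14, a call that DESeq2 did not make. With 1 mouse left out the Slc1a1 log2 fold change ran from -8.42 to -2.29. DESeq2 also did not call Cdh4, Zfp14, Car5a, Cys1, Fkbp6, Trmt5 or the predicted gene. Cdh4 and Zfp14 had 47 and 36 counts in the control members and 3 each in the CerS4epi-/- members, ratios of 0.0852 (0.0170 to 0.265) and 0.111 (0.0219 to 0.352), and each was called in 1 of the 4 fits that left out a mouse. Car5a and Trmt5 were also called in 1 of these 4 fits and Fkbp6 in none.

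Among genes above a mean of 100 CPM, picked after their values were seen, Ifitm6 fell by 1.39 ± 0.0888 on the log2 scale (1177 and 1221 against 408 and 505 CPM, adjusted p = 1.26e-05). Ifitm6 was lower in the CerS4epi-/- mice in each of the 4 Lce1 classes, without overlap, and was called in all 25 alternative fits. Hpgds, for a prostaglandin D synthase, fell by 1.05 ± 0.115, from 136 and 165 to 70.8 and 74.6 CPM (adjusted p = 0.000659). Of the genes highest in the members of the 4 layers, Ifitm6 fell and Scd2, given above, rose, and Nt5e fell by 0.79, from 76.5 and 76.2 to 39.4 and 49.3 CPM (adjusted p = 0.00678).

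Summed levels of T cell, melanocyte and stromal genes were low in the members, and those of the Langerhans cell and sebocyte lists were higher. The 12 T cell genes summed to 19.2 and 4.43 CPM in the control and 34.8 and 43.1 CPM in the CerS4epi-/- members, without overlap, and Cd7, the most abundant, reached at most 10.9 CPM. None of the 4 T cell genes tested was called by edgeR or DESeq2, all 4 had an unadjusted p under 0.05 in edgeR, against 16.5% of all genes, and none of the 12 stood at 0 in all mice. The part of this RNA in the genotype results was not tested. The 6 melanocyte genes summed to at most 0.886 CPM, with Mlana and Tyrp1 at 0. The 10 genes of fibroblasts, vessels and muscle summed to 16.6, 16.6, 17.5 and 25.7 CPM, of which Pecam1 gave 13.7, 13.3, 14.7 and 23.5 CPM, with Dcn, Lum and Des at 0. The 11 Langerhans cell genes summed to 370, 268, 361 and 392 CPM, of which Epcam, which granular keratinocytes may also express, gave 279, 246, 342 and 369 CPM. Epcam was called higher (log2 fold change 0.44, adjusted p = 0.0195 in edgeR). Most of the list went the other way. Of the 7 Langerhans cell genes tested, 2 had a fold change above 0, and the median log2 fold change was -0.75. An unadjusted p under 0.05 in edgeR was reached by 4 of these 7, against 16.5% of all genes. The 10 sebocyte genes summed to 489 to 529 CPM, with Scd1 as the most abundant and Cidea at 0. Fasn was called higher by 0.48 in edgeR but not in DESeq2. Without the members that held a count of the 14 genes of a mixed list of other cell types (summed level 62.3 and 27.0 against 30.5 and 52.9 CPM), edgeR called 136 genes higher and 105 lower. Mitochondrial counts were 4.85, 4.98, 5.06 and 4.50% in the members, with overlap.

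Whether the genotype difference itself differed between layers was tested with a genotype-by-layer term and a term for the mouse. Against spinous cells, the difference was more positive in the members for 143 of 11922 genes (1.2%) and more negative for 31 (0.26%). Without the mouse term these counts were 20 and 6. Of the terms against spinous cells named here, that of Sprr1a had the lowest adjusted p. Sprr1a was lower in the members of the CerS4epi-/- mice but higher in their spinous cells. There it read 149 and 110 CPM against 90.1 and 55.1 CPM in the control mice. The term was -2.29 ± 0.14 (adjusted p = 7.59e-08) and ran from -2.57 to -2.08 in 6 alternative fits. These fits kept the limits of the rule. Without the Cst6 and Krt79 limits, Sprr1a was higher by 1.93 (log2 fold change) in the CerS4epi-/- mice. Aqp3 was higher in both layers, but more so in spinous cells (65.4 and 48.9 against 9.36 and 11.2 CPM), with a term of -1.37 ± 0.25 (adjusted p = 0.0068). Rps6ka2, lower in the members, read 2.60 and 2.82 against 1.57 and 4.53 CPM in spinous cells, where the genotypes overlapped (term -2.93, adjusted p = 0.0105). This term was -1.62 without CerS4epi-/- mouse 2 (adjusted p = 0.252) and -4.69 without CerS4epi-/- mouse 1. Gpha2, for a glycoprotein hormone subunit, was lower in both layers, with 9.53 and 9.39 against 1.04 and 0.741 CPM in spinous cells and 18.4 and 20.8 against 6.90 and 7.61 CPM in the members. Without the mouse term the calls of Aqp3 (adjusted p = 0.158), Rps6ka2 (0.0852) and Gpha2 (0.0653) were lost. Without CerS4epi-/- mouse 1 those of Aqp3 (0.0751) and Gpha2 (0.147) were lost, and without CerS4epi-/- mouse 2 that of Gpha2 (0.171). The other terms of the rule for named genes (Col1a2, Ddit4l, Klk6, Xcl1, Gsdmc, A4galt, Xaf1 and 1 predicted gene) belonged to genes at or near 0 in a layer, and their size has no meaning as a fold. Flg had genotype log2 fold changes of 1.04 in spinous and 1.23 in late granular cells, and its terms of 0.12 ± 0.19 and -0.09 ± 0.11 were not called.

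Against late granular cells, 422 of 10178 genes (4.15%) had a more positive and 636 (6.25%) a more negative genotype difference in the members. These counts rested on control mouse 2. Without it edgeR called 0 and 1 (Sprr2h), with 764 and 765 genes at an unadjusted p under 0.05, and the terms of Lce6a (-1.94, adjusted p = 0.0696), Ifitm6 (1.52, adjusted p = 0.178) and Sptlc3 (1.52, adjusted p = 0.109) were of similar or larger size but were not called. The values that follow include it. Lce6a was lower in the members of the CerS4epi-/- mice but higher in their late granular cells, at 1235 and 1045 against 589 and 626 CPM, with a term of -1.88 ± 0.14 (adjusted p = 8.32e-11). Ifitm6 was lower in both layers, and less so in the members, since late granular cells read 46.4 and 18.3 against 326 and 360 CPM (term 1.56 ± 0.22, adjusted p = 9.75e-06). Sptlc3 followed the same pattern, with 23.7 and 11.9 against 84.6 and 63.3 CPM in late granular cells (term 1.26 ± 0.23, adjusted p = 0.000245). Sprr2h, a small proline-rich gene whose copies share reads, read 226 and 205 against 45.2 and 54.3 CPM in late granular cells and had 64 counts in the control and 4 in the CerS4epi-/- members. Chga, Cd3e, Pappa, Pole2, Fam174c, Hoxb6, Sowaha, Alox8 and 1 predicted gene completed the largest terms, each at or near 0 in a layer of a genotype.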

How the data were processed

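Epidermis from back skin of 4 mice was digested and run as single cells on BD Rhapsody. Per the labels and the methods, the authors trimmed reads with fastp 0.23.2 and mapped them with STAR 2.7.10a to GRCm39, and they deposited estimated counts (expected counts) per gene and barcode in which reads with several matches were shared out by expectation maximisation. Between 4.55% and 4.81% of the deposited entries were not whole. Libraries held 42619084 and 48497481 counts (control) and 53106317 and 39231945 (CerS4epi-/-). Kept cells numbered 8480 and 9086 (control) and 9017 and 7567 (CerS4epi-/-). The mitochondrial limit removed 68 and 91 against 363 and 316 cells. No doublet caller was run here, and leaving out the deepest 5% of members was an alternative.

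Counts were summed per mouse over the members, rounded and fitted with edgeR 4.0.16 (R 4.3.3, TMM scaling, filterByExpr, quasi-likelihood F test, Benjamini-Hochberg over all genes tested). The standard error is the absolute log2 fold change over the root of F. DESeq2 1.42.0 was an alternative. Spinous and basal cells held at most 1 marker count, fewer than 5 Lce1 counts, and at least 20 counts of Krt1 and Krt10 or of Krt5 and Krt14, whichever were more. The labels name separate mice, and the study's methods call its animals littermates, but which of these mice shared a litter is not given in the sources used here. Each left-out mouse leaves a genotype with 1 mouse, assumed to vary like the other genotype. Genes were named by rule: Cers4, the markers, the 10 largest rises and falls with mice that do not overlap, the most abundant and up to 3 called genes of each list, and 5 interaction terms each way. The members and the 22 gene lists were chosen with earlier results of these data known. The scripts were tested on simulated data. Some genes that the rule names are not reported here.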

Additional observations from a re-analysis of the deposited data

Results flagged for a closer look

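The genotype difference in early granular cells differed from that in spinous cells, by the genotype-by-layer test in edgeR, for Sprr1a (adjusted p = 7.59e-08), Aqp3 (0.0068), Slc39a2 (0.0239), Rps6ka2 (0.0105), Trmt5 (0.0328) and Gsdmc (0.038). Without the Cst6 and Krt79 limits the Sprr1a log2 fold change between the genotypes was 1.93, and the term was not fitted under that setting. Of 6 alternative fits, 6 called Sprr1a, 4 each Aqp3 and Rps6ka2, 3 Slc39a2, and 2 each Trmt5 and Gsdmc, and without the mouse term Slc39a2 (adjusted p = 0.309), Trmt5 (0.0852) and Gsdmc (0.407) were among those lost. Slc39a2 and Trmt5 read 6.21, 8.08, 7.17 and 5.18 CPM and 5.80, 4.93, 6.22 and 6.37 CPM in spinous cells, control mice first, so the genotypes overlapped there for Slc39a2 and lay close for Trmt5. It also differed for Col1a2 (adjusted p = 0.048), Ddit4l (0.00563), 1700008O03Rik (0.0496), Klk6 (0.0223), Xcl1 (0.0234), A4galt (0.0362), Xaf1 (0.0334) and Gpha2 (0.0258). Ddit4l was called in all 6 alternative fits, Xaf1 and Gpha2 in 3 and the others in 2 each, and without the mouse term all of these but Ddit4l were lost (adjusted p from 0.0653 for Gpha2 to 0.881 for Col1a2). Col1a2 is a fibroblast gene, and its spinous value came from CerS4epi-/- mouse 2, at 52.4 CPM against at most 3.56 CPM in the other mice. Xaf1 in the members came from CerS4epi-/- mouse 1, at 15.5 CPM against at most 3.10 CPM.

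Against late granular cells it differed for Lce6a (adjusted p = 8.32e-11), Sprr2h (1.89e-06), Ifitm6 (9.75e-06), Sprr1a (0.0001), Sptlc3 (0.000245), Rps6ka2 (0.000312) and Hpgds (0.0178). The late granular level of Sprr1a was 457 and 102 CPM in the control mice and 391 and 105 CPM in the CerS4epi-/- mice, and the term went from -1.80 to -0.96 without control mouse 2 (adjusted p = 0.252). It also differed for Chga (0.00112), Gm15635 (0.00781), Fam174c (0.00852), Hoxb6 (0.00873), Cd3e (0.0115), Pole2 (0.0116), Sowaha (0.0262), Alox8 (0.0266) and Pappa (0.0356). Without the mouse term the calls of Sprr1a (adjusted p = 0.226), Hpgds (0.0819), Pole2 (0.0745), Pappa (0.0745) and Alox8 (0.178) were lost, and without control mouse 2 all but that of Sprr2h. Fam174c, Hoxb6 and Sowaha were at 0 in the late granular cells of the CerS4epi-/- mice, and Cd3e and Pappa were at 0 in those of the control mice. Alox8 in the members came from CerS4epi-/- mouse 1 alone, at 3.45 CPM.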

How the results depend on the processing

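Counts of genes higher and lower in CerS4epi-/- members were 163 and 98. They were 77 and 41 with DESeq2, 338 and 256 with no filter on low counts, 31 and 36 in members without an Lce1 count, 20 and 6 without members holding immune or pigment cell counts (226 cells were left, since that list holds Epcam), and 707 and 385 with no limit on Cst6 or Krt79. In members with an Lce1 count the lower genes were 56. Leaving out each mouse gave 40 to 263 higher and 22 to 199 lower genes. With the replicate number as a replicate block they were 440 and 320, but the numbers were not shown to pair the mice (correlation of the deviations of the mice numbered 1 across genes 0.1014, with 2 pairs). The other alternatives kept both counts within 1.5 times. Of the 261 called genes, DESeq2 called 118, and the fit without CerS4epi-/- mouse 1 called 54. Terms against spinous cells (143 and 31) were 20 and 6 with no mouse term, 264 and 65 with no filter, and 33 to 155 and 14 to 40 with a mouse left out. Terms against late granular cells (422 and 636) were 237 and 357 with no mouse term, and 0 to 373 and 1 to 752 with a mouse left out. The log2 ratio of shares, -0.47, was 0.17 over spinous and granular cells together and -0.58 to -0.37 with a mouse left out. It shrank to -0.14 with no limit on Cst6 or Krt79 and to -0.08 at 10% mitochondrial counts, where the genotypes overlapped, and was below 0 under the other rules for members. Of 60 named genes called, 9 were called in every alternative fit that tested them, and 19 whenever a mouse was left out. The direction reversed for Sprr1a (1.93 with no limit on Cst6 or Krt79), Lce6a (0.12 without immune or pigment positive members) and Defb6 (-0.35 in members without an Lce1 count). The cause was not tested. The alternatives that count markers without Wfdc21, or leave out Krt5 and Krt14 positive members or those with counts of the mixed list, were chosen after seeing the data. With 2 mice per genotype and 277 to 469 members per mouse, genes too scarce to pass filterByExpr were not tested in the main fit.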
